A study of Homo sapiens with 36 samples.

Results

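RNA of the enzymes that make serine and of many genes linked to the transcription factor ATF4 was measured in WiT49 cells, an established line from an anaplastic Wilms tumor, a childhood kidney cancer. The 37 genes were chosen by symbol from a list of amino acid synthesis, folate, transporter and ATF4-response genes, out of 58219 genes listed in the RNA tables and 43582 in the footprint tables. The list sets no threshold, but it was drawn up with the measured differences of these libraries known. The differences between actinomycin D (actD) and vehicle are therefore a description of these genes, and no test is made over the set. The genes fall into serine synthesis (3), the folate one-carbon cycle (7), other amino acid and phosphoenolpyruvate enzymes (7), amino acid transporters (8), transcription factors and cofactors (6) and other stress-response targets (6).

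Cells were grown in medium with serum, glutamine and pyruvate and received 2 nM actD, a DNA-binding inhibitor of transcription, or dimethyl sulfoxide (DMSO), its vehicle. Treatment lasted 6 h, 72 h or 2 weeks, the last as 2 cycles of 7 days in which the additive was present for 3 days and absent for the other 4. Total RNA and ribosome footprints, the RNA fragments that translating ribosomes shield from nuclease, were sequenced in 3 libraries per group, 36 in all. The labels call them replicates without naming separate cultures, so p-values measure the spread between these libraries, which may be technical, and all of them come from 1 cell line. At 2 weeks, each RNA library carries one treatment in its title and the other in its library name. The library name is followed here, as "named actd" or "named dmso".

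Serine is made from the glycolytic intermediate 3-phosphoglycerate by PHGDH, PSAT1 and PSPH, and the SHMT enzymes pass its side-chain carbon to folate, where the MTHFD enzymes carry it on toward purines, thymidylate and formate. ATF4 is a transcription factor whose translation increases when the initiation factor eIF2 is phosphorylated, in what is called the integrated stress response. It is known to bind composite sites next to C/EBP proteins and to drive genes of amino acid synthesis and uptake, together with stress factors such as DDIT3 (CHOP), TRIB3 and CHAC1.

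The composite site was searched for as TGATGNAAN on both strands of RefSeq promoter windows of GRCh38.p14, from 250 bases before to 50 bases after each start. A window was matched for 30 of the 37 genes, and the others were ALDH1L2, GPT2, NUPR1, PSPH, PYCR1, SHMT2 and SLC7A11. The motif was found for 8 of these 30 genes (26.7%), against 4.45% of 27305 genes with a window. The 8 were ASNS, CHAC1, MTHFD1L, SLC1A4, SLC1A5, SLC38A1, SLC3A2 and SLC7A1. The form TGATGCAAT occurred in MTHFD1L only among the 30, and in 0.293% of all genes. The stretches show the 4 genes in which the match lies wholly before an annotated start and whose RNA values are described further on, each written 5′ to 3′ on the gene's strand with the match in capitals.
ASNS: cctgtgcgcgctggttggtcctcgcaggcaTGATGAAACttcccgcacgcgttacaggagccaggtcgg
CHAC1: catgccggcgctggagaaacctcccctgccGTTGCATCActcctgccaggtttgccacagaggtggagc
MTHFD1L: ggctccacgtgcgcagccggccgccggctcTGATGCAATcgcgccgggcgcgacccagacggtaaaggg
SLC1A5: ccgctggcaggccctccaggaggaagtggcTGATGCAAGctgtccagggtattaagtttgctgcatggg
The ASNS stretch is chr7:97872438-97872506 on the minus strand, with the match at bases -68 to -60 from an annotated start. The window of its other annotated start held no match. The CHAC1 stretch is chr15:40953231-40953299 on the plus strand, with the match on the opposite strand at -210 to -202. The MTHFD1L stretch is chr6:150866327-150866395 on the plus strand, and its match lies at -129 to -121 or at -90 to -82 from a pair of its annotated starts, and at 25 to 33 from a further start. The window of another annotated start, inside MTHFD1L, held no match. The SLC1A5 stretch is chr19:46784873-46784941 on the minus strand, with the match at -97 to -89 from an annotated start inside the gene. The windows of its other annotated starts, the one at the gene's 5′ end included, held no match. A match of these letters is a description of the window and was not tested for binding.

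Total counts ranged from 40221994 to 69240041 per RNA library and from 152556 to 1281039 per footprint library. Of the Wilms tumor and nephron progenitor markers reported here, IGF2, LIN28B and WT1 were at or above 1 CPM (CPM is the library-scaled count, with TMM scaling) in every RNA library, whereas SIX2, CITED1, EYA1, PAX2, PAX8 and SALL1 were below 1 CPM in all of them. Markers of blood cells summed to 0.187 to 2.1 CPM and those of endothelium to 0 to 1.28 CPM. Those of fibroblasts summed to 387 to 833 CPM, with COL1A1 at 346 to 818, DCN at 4.03 to 53.6 and LUM at 8.04 to 18.1 CPM. In the same list COL1A2 was at 0 in every RNA library and PDGFRA was below 1 CPM. At 72 h the share of counts in protein-coding genes was 54.3%, 57.8% and 62.4% with actD and 63.2%, 66.9% and 67.6% with DMSO, and the summed level of 4 epithelial markers was 1001, 998 and 1677 CPM with actD and 2169, 1698 and 1071 CPM with DMSO. The part of either in the 72 h results was not tested.

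One library stood apart for these genes, DMSO replicate 3 of the 72 h RNA. The 37 genes took 0.723% of its protein-coding counts, against 0.395% and 0.376% in DMSO replicates 1 and 2 and 0.327%, 0.327% and 0.356% in actD. It was also the deepest RNA library at 72 h, with 67342802 counts. It held the highest of the 6 values for 28 of the 36 members tested, where 23.7% of all genes tested had their highest value there. In 17 members it was over 2 times the higher of the other DMSO values, against 7.04% of all genes tested. The median log2 ratio of this library to the mean of the other DMSO libraries was 1.04 over the members and -0.01 over all genes tested. The excess was uneven among members, within roles too: ALDH1L2 was 13.1 times the mean of the other DMSO libraries and ASNS 4.82 times, whereas PHGDH was 1.51 times, MTHFD1L 1.21 times and MTHFD1 0.403 times that mean. The counts of 72 h RNA and the larger differences are given with and without this library, and the plot of both fits shows every member tested.

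**Figure D1:**
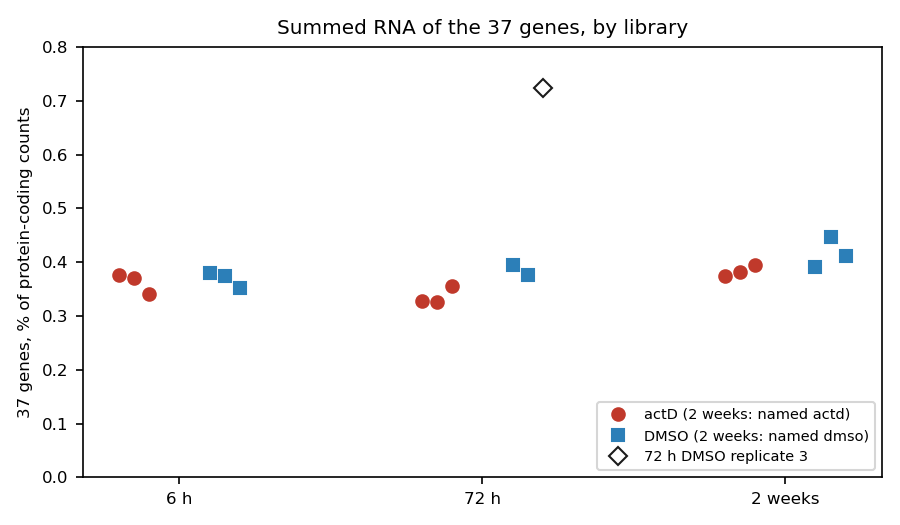
Summed RNA of the 37 genes as a percent of protein-coding counts in each of the 18 RNA libraries, by time and treatment (circles actD, squares DMSO, diamond DMSO replicate 3 at 72 h). The diamond is at 0.723%, and the other 72 h libraries lie between 0.327% and 0.395%.

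After 72 h of actD, RNA of 30 of the 36 members tested was lower than with DMSO, with a median log2 fold change of -1.04 against 0.02 over all 21195 genes tested. In 24 members every actD library was below every DMSO library, where 10.3% of all genes showed this, and in 1 member, MTHFD2L, every actD library was above, where 10.5% of all genes did. At an unadjusted p under 0.05 by edgeR's quasi-likelihood test, 23 members were lower, against 7.78% of all genes. After Benjamini-Hochberg adjustment 0 members passed, with a smallest adjusted p of 0.174, and 0.00472% of all genes did. DESeq2 called 15 members, all lower, against 2.57% of all genes lower, and a single edgeR fit over the 18 RNA libraries called 21 lower, NUPR1 included, against 3.61% of all genes. Without DMSO replicate 3 the median was -0.68 against 0.06 over all genes, and 28 of 36 members were below 0. Groups that do not overlap stay apart when a library is left out, so the 24 members had to keep their lower placement. No further tested member joined them, while the share of all genes was 18.6% in place of 10.3%. At an unadjusted p under 0.05, 19 members were lower (9.5% of all genes), with 0 called. DESeq2 called 15 members lower without DMSO replicate 3 as well (5.52% of all genes), with PYCR1 and SHMT1 in place of SLC1A5 and CHAC1. The single fit without it called 15 lower (4.59% of all genes) and 2, ATF5 and PPP1R15A, higher. These fits with other tools were added after the values had been seen. NUPR1, a stress-response cofactor, did not pass the filter on low counts and is listed at 0 to 0.074 CPM with actD and 0.16, 0.243 and 1.97 CPM with DMSO. In bulk RNA, fewer cells of a kind and less RNA per cell cannot be told apart.

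**Figure D2:**
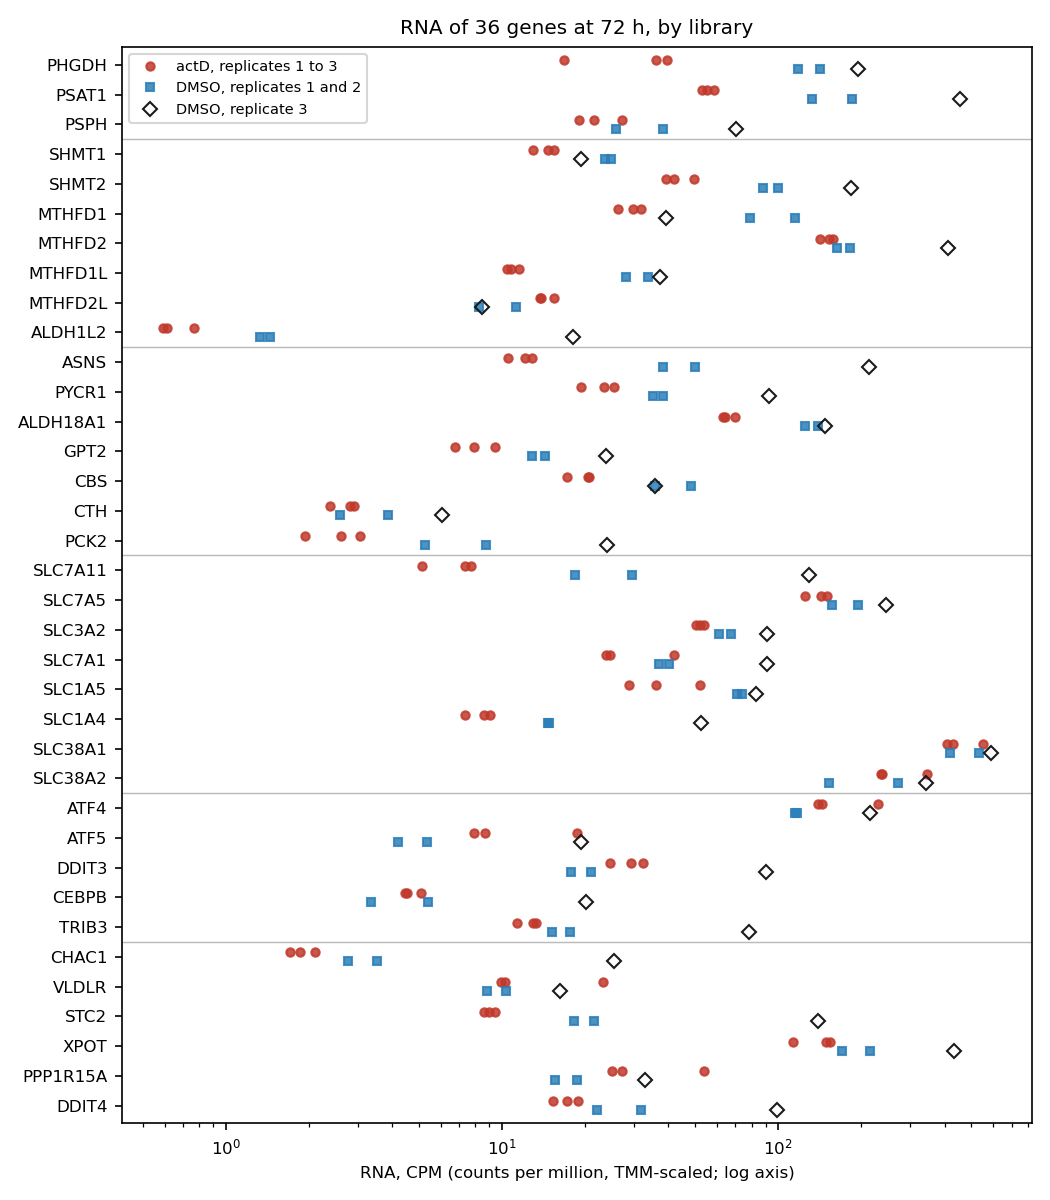
RNA level of the 36 members tested at 72 h in each library, in CPM on a log axis, with grey lines between roles. Circles are the 3 actD libraries, squares are DMSO replicates 1 and 2 and open diamonds are DMSO replicate 3, which is the highest of the 6 values for 28 members.

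The serine synthesis enzymes were all lower. PHGDH, which commits 3-phosphoglycerate to serine, was at 35.9, 39.4 and 16.8 CPM with actD and 117, 141 and 195 CPM with DMSO. The groups stood well apart, and actD replicate 3 was the lowest library. The difference was 4.92-fold lower, a log2 fold change of -2.30 ± 0.37 (SE, n = 3 and 3, edgeR adjusted p = 0.19), and -2.08 ± 0.37 without DMSO replicate 3. PSAT1, the aminotransferase of the second step, was at 58.6, 55.1 and 52.9 CPM against 186, 133 and 454 CPM. Its actD values were close together and its DMSO values were not, and the log2 fold change of -2.21 ± 0.45 (edgeR adjusted p = 0.215) became -1.52 ± 0.20 without DMSO replicate 3. PSPH, the phosphatase of the last step, was at 19 to 27.2 CPM with actD and 25.9 to 70.4 CPM with DMSO, and its groups overlapped (log2 fold change -0.99, and -0.51 without DMSO replicate 3).

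In the folate cycle, 6 of 7 members were lower with no overlap. MTHFD1L, the mitochondrial enzyme that releases formate, was at 10.4, 11.5 and 10.8 CPM with actD and 28.1, 33.7 and 37.2 CPM with DMSO. Neither group was spread widely, DMSO replicate 3 included. Its log2 fold change of -1.60 ± 0.20 had the smallest adjusted p among the members (edgeR, 0.174, and 0.0838 without DMSO replicate 3). SHMT2, the mitochondrial enzyme that moves the carbon of serine to folate, was at 49.7, 42 and 39.1 CPM against 88.2, 100.4 and 183 CPM, a log2 fold change of -1.50 ± 0.31 and of -1.11 ± 0.18 without DMSO replicate 3 (edgeR adjusted p = 0.218 and 0.107). MTHFD1, the cytosolic three-activity folate enzyme, was singled out after its values were seen because DMSO replicate 3 lies low there. It was at 26.3, 29.8 and 31.7 CPM with actD and 78.9, 115 and 39.2 CPM with DMSO, and its log2 fold change of -1.41 ± 0.37 was -1.74 ± 0.22 without that library.

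Other folate members depended on that library far more. MTHFD2, the mitochondrial dehydrogenase, was at 158, 152 and 142 CPM with actD and 164, 181 and 410 CPM with DMSO, so the groups were barely apart, and its log2 fold change of -0.74 ± 0.36 was -0.20 ± 0.16 without DMSO replicate 3. ALDH1L2, which oxidizes 10-formyl-tetrahydrofolate in mitochondria, was at 0.765, 0.61 and 0.594 CPM against 1.44, 1.33 and 18.1 CPM. That single DMSO value was 13.1 times the mean of the other DMSO libraries, and the log2 fold change of -3.41 ± 1.04 (edgeR adjusted p = 0.283) was -1.08 ± 0.28 without it. MTHFD2L, a close relative of MTHFD2, also named after its values were seen, was higher at 13.7, 15.5 and 13.8 CPM against 11.2, 8.27 and 8.47 CPM (log2 fold change 0.62 ± 0.22, edgeR adjusted p = 0.318, and 0.55 without DMSO replicate 3). SHMT1, the cytosolic partner of SHMT2, was lower at 13 to 15.5 CPM against 19.3 to 24.7 CPM (log2 fold change -0.65, and -0.76 without DMSO replicate 3).

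All 7 of the further enzymes were lower, 6 of them without overlap. ASNS, asparagine synthetase and a classical ATF4 target, was at 12.8, 12.2 and 10.5 CPM with actD and 49.9, 38.3 and 213 CPM with DMSO. Every DMSO value was above the sum of the 3 actD values. Its log2 fold change was -3.08 ± 0.65 (edgeR adjusted p = 0.23) and -1.91 ± 0.20 without DMSO replicate 3 (edgeR adjusted p = 0.0838). PCK2, the mitochondrial phosphoenolpyruvate carboxykinase, was at 3.06, 2.61 and 1.93 CPM against 8.76, 5.24 and 24 CPM, with log2 fold changes of -2.32 ± 0.56 and, without that library, -1.47 ± 0.33. The proline enzymes PYCR1 and ALDH18A1, the alanine aminotransferase GPT2 and cystathionine synthase CBS had log2 fold changes of -1.29 to -1.04, and without DMSO replicate 3 PYCR1 was at -0.70, GPT2 at -0.77, ALDH18A1 at -1.01 and CBS at -1.12. ALDH18A1 was tight in both groups, at 63.3 to 69.5 CPM with actD and 125 to 148 CPM with DMSO. Counts of CBS may be split with its near-identical copy CBSL and are uncertain. CTH, the next enzyme of transsulfuration, was at 2.39 to 2.92 CPM against 2.59 to 6.05 CPM and overlapped (-0.63, and -0.26 without DMSO replicate 3).

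Among the transporters the spread of responses was wide. SLC7A11, the cystine carrier of system xc-, was at 7.73, 7.36 and 5.15 CPM with actD and 29.6, 18.4 and 129 CPM with DMSO. All DMSO libraries were higher, but replicate 3 was 5.36 times the mean of the other DMSO libraries. The log2 fold change was -3.13 ± 0.72 (edgeR adjusted p = 0.241) and -1.84 ± 0.29 without it. SLC1A4, a carrier of neutral amino acids including serine, was at 9.04, 8.58 and 7.35 CPM against 14.8, 14.7 and 52.5 CPM, and its log2 fold change moved from -1.72 ± 0.51 to -0.83 ± 0.19. SLC7A5, the light chain of the leucine carrier LAT1, was at 143, 125 and 150 CPM against 195, 157 and 246 CPM, a log2 fold change of -0.51 ± 0.22 (edgeR adjusted p = 0.382) and of -0.34 without DMSO replicate 3. SLC3A2, the heavy chain shared by SLC7A5 and SLC7A11, and SLC1A5, a glutamine carrier, were also lower without overlap. The log2 fold change was -0.49 for SLC3A2 and -0.97 for SLC1A5, and -0.31 and -0.90 without DMSO replicate 3. The groups of SLC7A1, SLC38A1 and SLC38A2 overlapped, with log2 fold changes of -0.89, -0.15 and 0.10. Without DMSO replicate 3 these were -0.36, -0.05 and 0.36.

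Of the 5 transcription factors and cofactors tested, only TRIB3 was lower without overlap. ATF4 was at 140, 144 and 230 CPM with actD and 115, 117 and 216 CPM with DMSO. In each group the same-numbered replicate 3 was the high library, and the groups overlapped (log2 fold change 0.20 ± 0.33, edgeR adjusted p = 0.819). Without DMSO replicate 3 it was 0.56 ± 0.27, with all actD values above both DMSO values, and without actD replicate 3 it was -0.07. DDIT3, the pro-apoptotic factor CHOP, was at 32.5, 29.3 and 24.6 CPM against 20.9, 17.7 and 89.9 CPM. Its actD values lay between the DMSO ones, so its log2 fold change of -0.57 ± 0.59 turned to 0.57 ± 0.21 without DMSO replicate 3. ATF5 and CEBPB, which bind DNA as basic leucine zipper factors and were named after their values were seen, also had their top DMSO value there. Without it, ATF5 went from 0.28 ± 0.62 to 1.30 ± 0.44, and CEBPB from -1.04 ± 0.61 to 0.10 ± 0.27. TRIB3, a pseudokinase that restrains ATF4 and AKT signalling, was at 13.2, 12.9 and 11.3 CPM against 15.1, 17.6 and 78.7 CPM, with log2 fold changes of -1.57 ± 0.61 and -0.39 ± 0.19.

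Of the remaining stress targets, 4 of 6 were lower without overlap. CHAC1, which degrades glutathione, was at 2.1, 1.85 and 1.71 CPM with actD and 2.78, 3.54 and 25.4 CPM with DMSO. STC2, a secreted glycoprotein, was at 9.4, 8.62 and 9 CPM against 21.6, 18.2 and 139 CPM. In both, 1 DMSO value was 7 or more times the mean of the others. Their log2 fold changes of -2.49 ± 0.83 and -2.73 ± 0.77 (edgeR adjusted p = 0.305 and 0.271) became -0.75 ± 0.25 and -1.15 ± 0.18. DDIT4, an inhibitor of mTORC1, was at 17.2, 18.8 and 15.3 CPM against 22, 31.8 and 98.7 CPM (log2 fold change -1.57 ± 0.53, and -0.66 ± 0.22 without that library). XPOT, the exporter of tRNA from the nucleus and named after its values were seen, was at 154, 148 and 113 CPM against 216, 170 and 431 CPM (-0.98 ± 0.36, and -0.48 ± 0.22). PPP1R15A (GADD34), the phosphatase subunit that reverses eIF2 phosphorylation, was likewise singled out because it lay the other way, at 25.1, 27.1 and 53.6 CPM against 15.5, 18.6 and 32.9 CPM (0.66 ± 0.39, and 1.04 ± 0.38), and VLDLR, a lipoprotein receptor, had a log2 fold change of 0.30.

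**Figure D3:**
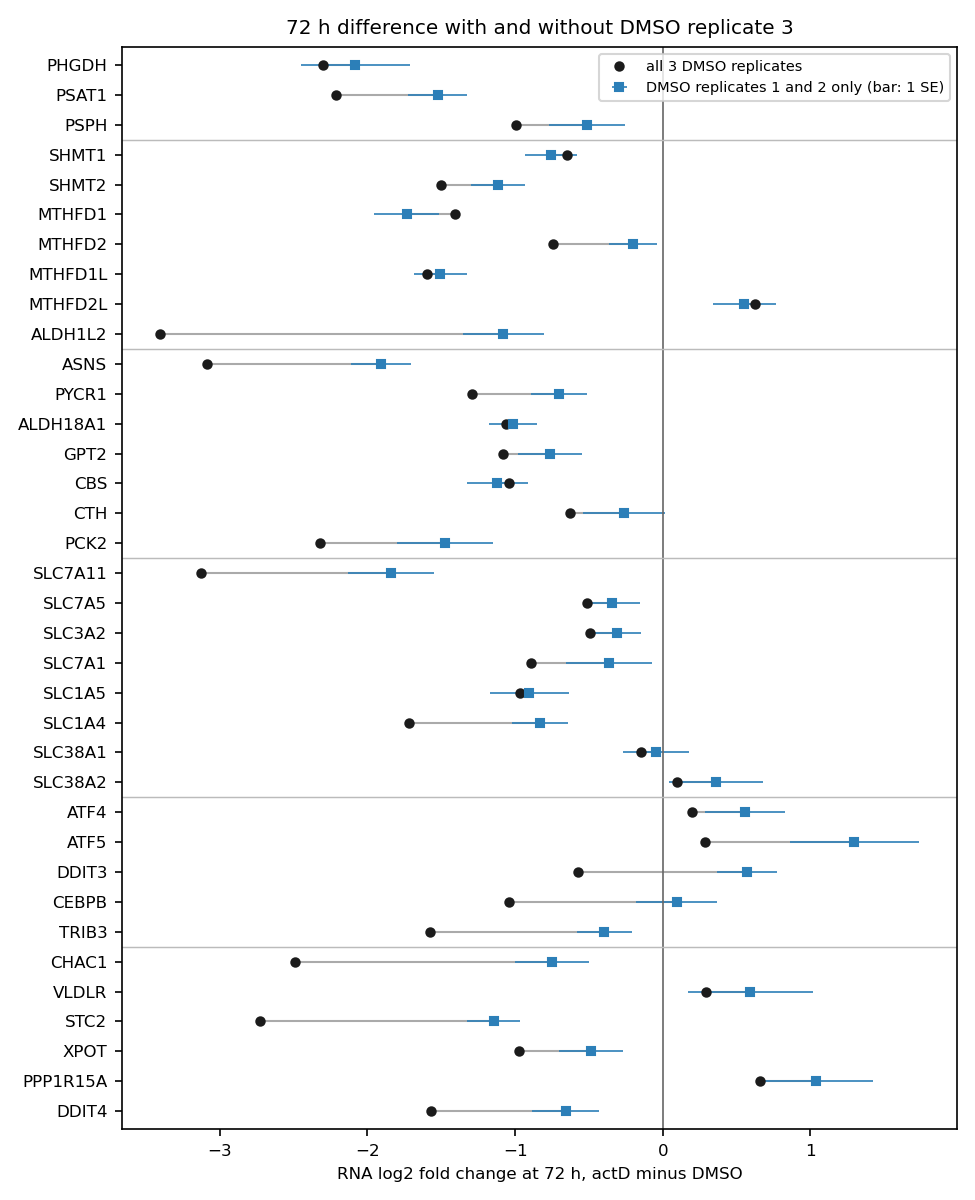
RNA log2 fold change at 72 h, actD minus DMSO, for the 36 members tested, with all DMSO libraries (circles) and with DMSO replicates 1 and 2 only (squares, bar 1 SE). PHGDH, MTHFD1L and ALDH18A1 moved little, while ALDH1L2 went from -3.41 to -1.08 and DDIT3 from -0.57 to 0.57.

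With DMSO replicate 3 left out, 5 of the 36 members tested had non-overlapping higher values with actD. This was a smaller share than the 19.9% of all genes placed so. They were MTHFD2L, ATF4, ATF5, DDIT3 and PPP1R15A.

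At 6 h the 37 members, all tested, showed little difference, with a median log2 fold change of -0.04 against 0.02 over all 22669 genes. By edgeR 0 members and 0% of all genes were called, 5 members had an unadjusted p under 0.05, against 8.21% of all genes, and DESeq2 called 0. DDIT4 had the largest difference among members above 1 CPM, at 13.8, 14.6 and 17.6 CPM with actD and 10.6, 10.3 and 8.88 CPM with DMSO. Its groups did not overlap, and it was 1.54-fold higher (log2 fold change 0.63 ± 0.15, edgeR adjusted p = 0.363). CBS, at 44.1, 47.6 and 33.4 CPM against 57.6, 60.2 and 58.8 CPM, and MTHFD1L, at 26.8, 29.4 and 24.5 CPM against 37.8, 36 and 35.2 CPM, were lower without overlap (log2 fold changes -0.50 ± 0.14 and -0.43 ± 0.11, edgeR adjusted p = 0.464 and 0.434). MTHFD1 was lower as well (-0.37 ± 0.16), while ATF5, XPOT and PPP1R15A were higher by 0.37 ± 0.15, 0.19 ± 0.12 and 0.08 ± 0.10 on the log2 scale.

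Of the serine synthesis enzymes and classical ATF4 targets named at each time, SLC7A5 alone had groups that did not overlap at 6 h, at 428 to 442 CPM with actD and 460 to 474 CPM with DMSO. PHGDH was at 90.1, 98.2 and 89.6 CPM with actD and 105.8, 96.5 and 85.1 CPM with DMSO, and PSAT1 was at 92.3, 99.8 and 105 CPM against 125, 109.6 and 84.1 CPM. The libraries of each treatment interleaved, with log2 fold changes of -0.05 ± 0.12 and -0.10 ± 0.16. The log2 fold changes of SHMT2 (-0.09), MTHFD2 (0.04), ASNS (-0.10), SLC7A11 (0.11), SLC7A5 (-0.10), ATF4 (-0.09), DDIT3 (0.09), TRIB3 (-0.33) and CHAC1 (0.33) had edgeR adjusted p-values of 0.749 to 0.977. Per kilobase of exon, the 6 h DMSO level was highest for SLC7A5 at 98.4 ± 1.52 CPM per kb (SD, n = 3), followed by ATF4 at 49.0 ± 6.11 and PSAT1 at 48.5 ± 9.4, which did not differ beyond their spread, and it was lowest for SLC7A11, ALDH1L2 and NUPR1, at 0.57, 0.097 and 0.021 CPM per kb.

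The test of the difference between the 72 h and the 6 h effects in RNA covered all 37 members. The effect was lower at 72 h for 33 of them, with a median difference of -1.06 log2 units against -0.03 over all 24251 genes. By edgeR 0 members were called, with a smallest adjusted p of 0.143, and 0.0165% of all genes were. At an unadjusted p under 0.05, 20 members were lower, against 5.18% of all genes, and DESeq2 called 8 lower, against 0.648%. Without DMSO replicate 3 at 72 h, 29 members were below 0 with a median of -0.62 against 0.02 over all genes, 19 were lower at an unadjusted p under 0.05 (6.23% of all genes) and 0 were called by edgeR, with a smallest adjusted p of 0.0597, while DESeq2 called 11 lower (1.61% of all genes). PHGDH differed by -2.28 ± 0.39 (edgeR adjusted p = 0.143) and was called without actD replicate 3 of the 72 h RNA (adjusted p = 0.03). Other differences were -2.14 ± 0.51 for PSAT1, -3.00 ± 0.70 for ASNS, -3.26 ± 0.77 for SLC7A11, -2.84 ± 0.92 for CHAC1, -1.43 ± 0.39 for SHMT2 and -1.27 ± 0.74 for TRIB3 (edgeR adjusted p = 0.297 to 0.701). MTHFD2 and SLC7A5 differed by -0.80 ± 0.43 and -0.44 ± 0.25, ATF4 by 0.27 ± 0.39 and DDIT3 by -0.69 ± 0.68 (edgeR adjusted p = 0.668 to 0.898). Without DMSO replicate 3 at 72 h the difference was -2.02 ± 0.39 for PHGDH and -1.02 ± 0.30 for SHMT2. The differences of PSAT1 (-1.42 ± 0.26), ASNS (-1.80 ± 0.27), SLC7A11 (-1.94 ± 0.32), CHAC1 (-1.08 ± 0.34), MTHFD2 (-0.23 ± 0.24) and SLC7A5 (-0.24 ± 0.20) shrank by 1.5 times or more. That of TRIB3 was -0.06 ± 0.39, that of ATF4 was 0.65 ± 0.29 and that of DDIT3 turned to 0.48 ± 0.27.

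**Figure D4:**
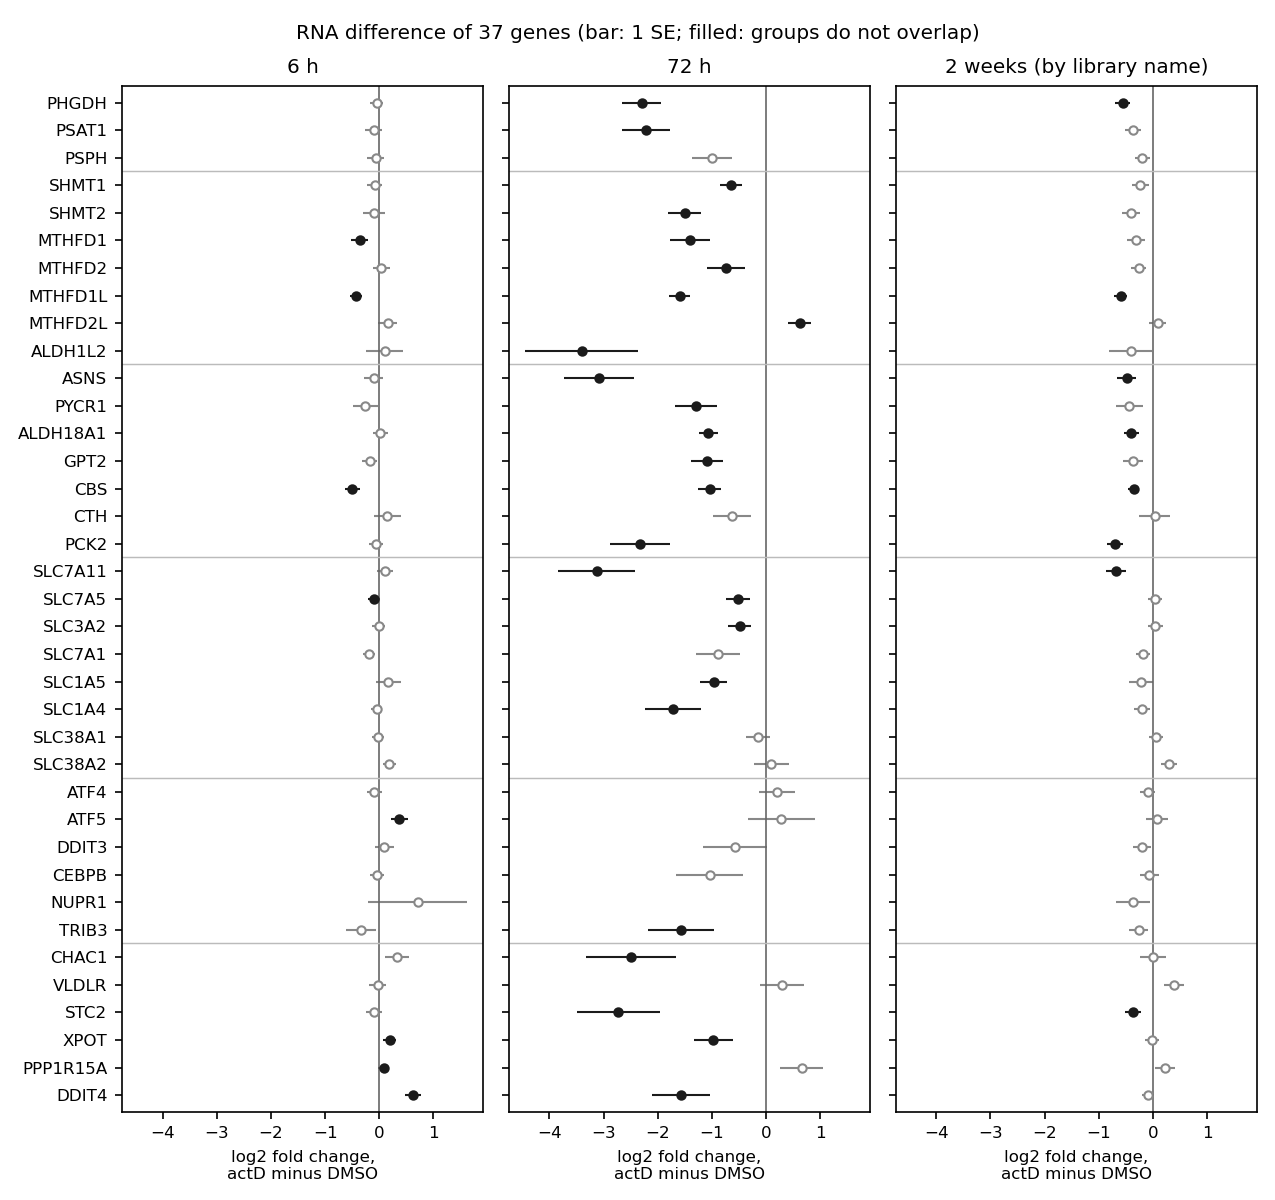
RNA log2 fold change of each member, actD minus DMSO, at 6 h, 72 h and 2 weeks (points, with bars of 1 SE), where filled points mark groups that do not overlap and grey lines separate the roles. Most 6 h points lie near 0, the 72 h points spread down to -3.41, and the 2-week points, whose sign rests on the library names, lie between -0.70 and 0.39.

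At 2 weeks the libraries named actd were lower than those named dmso for 27 of 37 members, with a median log2 fold change of -0.21 against -0.02 over all 21137 genes. The sign is the opposite if the titles are right. In 8 members every named actd library was below every named dmso library, against 7.83% of all genes. In 0 members every named actd library was above, and the share of all genes placed so is not given here. By edgeR 0 members and 0% of all genes were called, 10 members were lower at an unadjusted p under 0.05 (4.93% of all genes), and DESeq2 called 3, PHGDH, PCK2 and MTHFD1L (1.14% of all genes). The share of protein-coding counts also differed, at 52.9% to 59.3% in named actd and 61.1% to 62.5% in named dmso, and its part was not tested.

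PCK2 was at 11.5, 10.1 and 11 CPM in named actd and 18.1, 20.2 and 14.6 CPM in named dmso, 1.62-fold lower (log2 fold change -0.70 ± 0.15, edgeR adjusted p = 0.359). MTHFD1L was at 16, 13.3 and 15.9 CPM against 22, 23.1 and 23.1 CPM, and SLC7A11 at 14.1, 9.88 and 13.1 CPM against 18.3, 23.7 and 17.1 CPM. In both, each named dmso library was above each named actd library (log2 fold changes -0.59 ± 0.12 and -0.67 ± 0.18, edgeR adjusted p = 0.328 and 0.425). PHGDH, at 125, 98.5 and 102 CPM against 145, 180.5 and 155 CPM, had a log2 fold change of -0.56 ± 0.14, and ASNS, ALDH18A1, STC2 and CBS had -0.49, -0.40, -0.37 and -0.35 without overlap. The other members named at each time overlapped: PSAT1 (-0.37), SHMT2 (-0.40), MTHFD2 (-0.26), TRIB3 (-0.26), DDIT3 (-0.20), ATF4 (-0.09) and SLC7A5 (0.04), while CHAC1 had the same mean in both. By library name, all 8 members that were lower here were among the 24 that were lower without overlap at 72 h. Again by library name, 2 members, MTHFD1L and CBS, were so in all 3 RNA tables. The share of all genes placed in these ways is not given here.

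Ribosome footprints covered few of these genes. The filter on low counts was passed by 4 members at 6 h, 8 at 72 h and 6 at 2 weeks. All 6 footprint libraries of a time point listed a member at 0 in 11, 8 and 7 cases, among them, at 72 h, PSAT1, ASNS and MTHFD1, although PSAT1 RNA averaged 156.6 CPM there. Of members with at least 10 CPM of RNA, 6 of 30, 6 of 31 and 2 of 30 were listed at 0, against 22%, 11.2% and 8.95% of all such coding genes. A value of 0 in these estimates need not mean that no footprint was sequenced.

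MTHFD1L was the 1 member whose footprints passed the test at 72 h, where they fell with actD. Its footprints were at 8.96, 8.16 and 10.7 CPM with actD (6, 3 and 9 counts) and 54.3, 50.3 and 87.1 CPM with DMSO (24, 15 and 7 counts). The groups were far apart on the CPM scale, and DMSO replicate 3, the shallowest footprint library, was the highest. The log2 fold change was -2.60 ± 0.36 (edgeR adjusted p = 0.0417), where 3.79% of the 2426 genes tested were called. Over the alternatives its adjusted p lay between 0.00667 (DESeq2) and 0.188 (without DMSO replicate 1), and it was above 0.05 without DMSO replicate 2 (0.154), actD replicate 1 (0.148) or actD replicate 2 (0.13), and with the replicate number as a block (0.142), library totals (0.112) or a looser filter on low counts (0.106). At 2 weeks MTHFD1L was below the filter, at 5.7, 1.14 and 2.92 CPM with actD and 10.8, 8.1 and 7.55 CPM with DMSO, and at 6 h its values overlapped.

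The other 7 members tested in 72 h footprints were not called. SHMT1, at 14.9, 21.8 and 26.2 CPM with actD and 29.4, 30.2 and 37.3 CPM with DMSO, was the only other one without overlap (log2 fold change -0.55 ± 0.37, edgeR adjusted p = 0.358), and together 2 of 8 members were lower in this way, against 16.2% of all genes. SHMT2, at 71.7, 152 and 69 CPM against 136, 174 and 211 CPM, overlapped through actD replicate 2 (-0.82 ± 0.44, edgeR adjusted p = 0.252). The transporters and XPOT ranged from -0.59 ± 0.61 for SLC1A5 to 0.52 ± 0.42 for SLC38A2, with -0.17 ± 0.48 for SLC3A2, -0.47 ± 0.49 for XPOT and 0.25 ± 0.35 for SLC7A5 (edgeR adjusted p = 0.447 to 0.84). Below the filter, PHGDH was listed at 0 in all actD libraries and at 9.05, 46.9 and 24.9 CPM with DMSO (4, 14 and 2 counts). ATF4 was at 35.8, 19 and 27.4 CPM with actD and 15.8, 6.71 and 24.9 CPM with DMSO, with 2 counts in each of DMSO replicates 2 and 3, and neither gene was tested.

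**Figure D5:**
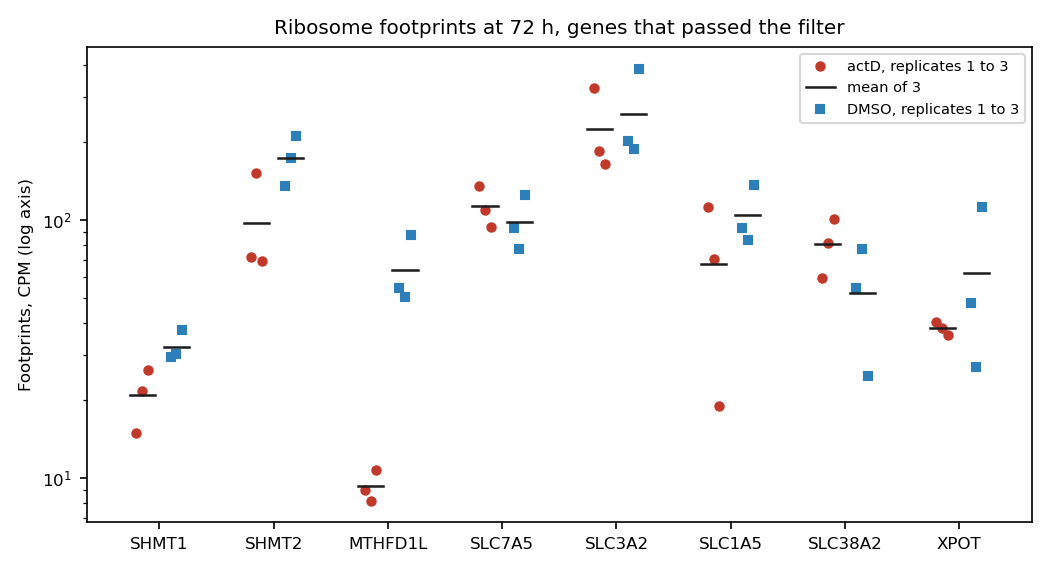
Footprint level at 72 h in each library for the 8 members that passed the filter, in CPM on a log axis (circles actD, squares DMSO, black lines the mean of 3). MTHFD1L lies at 8.16 to 10.7 CPM with actD and 50.3 to 87.1 CPM with DMSO, and most of the others overlap.

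At 6 h none of the 4 members tested in footprints was called by edgeR or DESeq2 or had an unadjusted p under 0.05, and 0% of 1212 genes were called. SHMT2 was at 39.3, 31.8 and 56.2 CPM with actD and 24.5, 35.1 and 47.2 CPM with DMSO (log2 fold change 0.27 ± 0.41), and SLC7A5, SLC3A2 and SLC38A2 had 0.59 ± 0.45, -0.09 ± 0.39 and -0.29 ± 0.37, all with overlap. At 2 weeks 0 of 6 members and 0% of 1598 genes were called by edgeR, 0 members by DESeq2, and 2 had an unadjusted p under 0.05 (share of all genes not given here). These were SLC1A5, at 19.4, 23.9 and 24.8 CPM against 10.8, 17.1 and 9.05 CPM, and SLC38A2, at 54.7, 83.2 and 115 CPM against 32.5, 43.2 and 46.8 CPM. Both were higher in every actD library, where 8.32% of all genes were (log2 fold changes 0.80 ± 0.29 and 1.04 ± 0.38, edgeR adjusted p = 0.562 for both). SHMT2, SLC7A5, SLC3A2 and SLC38A1 had -0.32 ± 0.33, -0.01 ± 0.25, 0.56 ± 0.32 and 0.32 ± 0.34.

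Translational efficiency, the footprint change relative to the RNA change, was not called different for any member. At 6 h 0 of 4 members and 0% of 951 genes passed, with 0 members at an unadjusted p under 0.05. At 72 h 0 of 8 members and 0.433% of 2311 genes passed, and MTHFD1L alone had an unadjusted p under 0.05, with a log2 difference of -1.18 ± 0.43 (edgeR adjusted p = 0.248, and -1.37 to -1.02 when a library was left out). SHMT1, SHMT2, SLC7A5, SLC3A2, SLC1A5, SLC38A2 and XPOT ranged from -0.07 ± 0.40 to 0.65 ± 0.43. Without DMSO replicate 3 of the 72 h RNA they ranged from -0.20 for XPOT to 0.37 for SLC7A5, and MTHFD1L was at -1.37. At 2 weeks 0 of 6 members and 0% of 1441 genes passed, and SLC1A5 alone had an unadjusted p under 0.05 (0.95 ± 0.42, edgeR adjusted p = 0.879). The others ranged from -0.12 ± 0.27 for SLC7A5 to 0.67 ± 0.35 for SLC38A2. These 2-week values rest on the RNA library names. By title, SLC38A2 was at 1.31 ± 0.35 (edgeR adjusted p = 0.0842), SLC1A5 at 0.59 ± 0.43, SLC3A2 at 0.58, SLC38A1 at 0.38, SLC7A5 at 0.02 and SHMT2 at -0.71 ± 0.32. SHMT2, SLC7A5, SLC3A2 and SLC38A2 at 6 h had 0.37 ± 0.41, 0.77 ± 0.53, -0.05 ± 0.37 and -0.49 ± 0.34. DESeq2 called 0 members at each time. The shares of all genes with an unadjusted p under 0.05 in efficiency are not given here.

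The change of the footprint effect between times was called for 0 of 9 members from 6 h to 72 h (0% of 3012 genes) and for 0 of 15 from 72 h to 2 weeks (0.0532% of 3760 genes), and DESeq2 also called 0. From 6 h to 72 h, 2 members had an unadjusted p under 0.05 (share of all genes not given here), named for that reason. MTHFD1L was lower at 72 h by -1.73 ± 0.68 (edgeR adjusted p = 0.733). SLC1A5 was higher, and its 6 h footprints were listed at 0 in all actD libraries and at 27.5, 6.49 and 7.87 CPM with DMSO, so no fold is given. From 72 h to 2 weeks no member had an unadjusted p under 0.05.

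Neighbouring pathways were described through 76 genes of 5 lists. At 72 h, of 72 tested, 59 were below 0 with a median log2 fold change of -0.47. Without overlap 27 were lower and 2 higher, against 10.3% and 10.5% of all genes, and 22 were lower at an unadjusted p under 0.05 (7.78% of all genes), with 0 called by edgeR. DESeq2 called 6 lower (2.57% of all genes) and the single fit 13 (3.61%). When DMSO replicate 3 was left out, 55 were below 0 with a median of -0.34, 33 were lower and 5 higher without overlap (18.6% and 19.9% of all genes), 22 were lower at an unadjusted p under 0.05 (9.5% of all genes) and 0 were called.

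In the amino acid enzyme list 9 of 13 were lower without overlap, and leaving out DMSO replicate 3 added no further gene to them. ASS1, which makes argininosuccinate, was at 10.1, 9.99 and 8.93 CPM with actD and 16.5, 14.8 and 111.6 CPM with DMSO. Its log2 fold change of -2.30 ± 0.77 was -0.70 ± 0.18 without DMSO replicate 3. BCAT1, the cytosolic branched-chain aminotransferase, was at 131, 137 and 205 CPM against 307, 248.8 and 544 CPM (-1.22 ± 0.34, and -0.83 ± 0.26 without it), and GOT1, the aspartate aminotransferase, had -1.01 ± 0.22 and -0.81 ± 0.16. Of the other ATF4-linked genes, all 12 tested were below 0 and 5 did not overlap, whereas without that library 10 were below 0, with a median of -0.14 in place of -0.72. SLC6A9, a glycine carrier, went from -1.61 ± 0.63 to -0.51 ± 0.32, HERPUD1, of the endoplasmic reticulum stress response, from -1.22 ± 0.51 to -0.33 ± 0.20, and EIF4EBP1, the eIF4E-binding repressor, from -0.90 ± 0.27 to -0.59 ± 0.18.

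Of 21 further folate and methionine genes, 5 were lower without overlap, and 9 were so without DMSO replicate 3. The purine enzyme GART was at 41.3, 40.8 and 45.2 CPM against 97, 91.7 and 69.5 CPM, with log2 fold changes of -1.02 ± 0.20 and, without that library, -1.16 ± 0.16. AHCY, of the methionine cycle, and SFXN1, the mitochondrial serine carrier, moved little, from -0.88 ± 0.19 to -0.87 ± 0.19 and from -0.50 ± 0.20 to -0.53 ± 0.20. Kinases and initiation factors of the stress response had a median of -0.28 (-0.27 without it), with 4 of 13 lower without overlap, and EIF2B3, EIF2AK2 and EIF2S2 were at -0.86 ± 0.22, -0.71 ± 0.23 and -0.52 ± 0.20. Of 13 other transporters 4 were lower and 2 higher without overlap, and without that library 5 were lower and 4 higher. SLC1A1 went from -2.14 ± 0.69 to -0.995 ± 0.40, SLC7A2 from -0.92 ± 0.31 to -0.73 ± 0.32, and SLC36A1 stayed at 0.38 ± 0.20. Adjusted p-values of these named genes ranged from 0.199 to 0.468 by edgeR. At 6 h and 2 weeks 0 further genes were called by edgeR, with medians of 0.02 and -0.02, and 4 and 9 had an unadjusted p under 0.05. At 6 h 8.21% of all genes had such a p, and the share at 2 weeks in either direction is not given here.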

How the data were processed

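Gene-level estimated counts were deposited by the authors in 6 tables, 1 for each assay and time, and hold whole numbers. HISAT2, StringTie and hg38 are named per the submitters' processing notes, without versions, and strand use in counting is not given in the sources used here. In the 6 h and 2-week RNA tables a value of 3 is more frequent than 1 or 2, so 1 unit there need not be 1 read. Gene identifiers matched GENCODE release 29 without version in 99.42% (RNA) and 99.36% (footprints) of cases. Per the labels' protocols, 2 RNA extraction kits were used, and which library had which is not given.

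The expected counts were already whole numbers, so rounding changed none, and were tested with edgeR 4.0.16 (R 4.3.3; TMM scaling, filterByExpr, quasi-likelihood F test), actD minus DMSO within each table, with Benjamini-Hochberg adjustment over all genes tested and a threshold of 0.05. Translational efficiency was the assay-by-treatment interaction and the change between times the time-by-treatment interaction. Alternatives were DESeq2 1.42.0, library totals, a looser filter, a single fit over all times, the replicate number as a block, treatment by title at 2 weeks, and each library left out. DESeq2 and the single fit were also run without DMSO replicate 3 of the 72 h RNA, a choice made after seeing the data. The scripts were tested on simulated data. Figures used matplotlib 3.10.9. Total counts per library are given with the results; shallow footprint libraries limit precision, and a floor of 3 counts covers counting error only.

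The members and the gene lists were chosen with earlier results of these data known. A fixed set of members was named in every RNA comparison, with the largest non-overlapping differences at a mean of at least 1 CPM added, up to 12, and up to 3 genes per further list. Genes named outside this rule are marked in the text. RNA at 2 weeks was grouped by library name because titles and names contradict each other.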

Additional observations from a re-analysis of the deposited data

Results flagged for a closer look

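For XPOT, the tRNA exporter, every 6 h actD library lay above and every 72 h actD library below its DMSO libraries. The effect of actD differed between 72 h and 6 h by -1.19 ± 0.40 on the log2 scale, and the test of this difference gave an edgeR adjusted p of 0.512. For DDIT4, the mTORC1 inhibitor, the same opposite placement was seen, with a difference of -2.23 ± 0.60 and an edgeR adjusted p of 0.437. Neither difference passed the threshold. DMSO replicate 3 was the highest 72 h RNA library for both, and without it the differences were -0.67 ± 0.24 for XPOT (edgeR adjusted p = 0.379) and -1.28 ± 0.27 for DDIT4 (edgeR adjusted p = 0.121).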

How the results depend on the processing

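Counts of called members moved as follows. For RNA at 72 h, DESeq2 gave 15 and the single fit 21, against 0, and without DMSO replicate 3 they gave 15 and 17. At 2 weeks DESeq2 gave 3, against 0. For the 72 h minus 6 h effect DESeq2 gave 8, or 11 without DMSO replicate 3 of 72 h, and leaving out libraries gave 0 to 1. For 72 h footprints the count was 0, against 1, with library totals, with a looser filter and with the replicate block, and 0 to 1 when a library was left out. The labels do not say whether libraries with the same replicate number belong together. Same-numbered actD and DMSO RNA libraries at 72 h correlated at 0.069, 0.26 and 0.16, against means of -0.026, -0.11 and -0.099 with other numbers. At 6 h the same-numbered RNA values were the lower ones, and at 2 weeks the order was mixed. The block changed no other count of calls by over 1.5 times.

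Log2 differences that changed sign follow. With the treatment taken from titles, RNA at 2 weeks gave PHGDH 0.56, PSAT1 0.37, SHMT2 0.40, MTHFD2 0.26, ASNS 0.49, ATF4 0.094, DDIT3 0.20, TRIB3 0.26, SLC7A11 0.67, SLC7A5 -0.041, PCK2 0.70, MTHFD1L 0.59, ALDH18A1 0.40, STC2 0.37 and CBS 0.35. With library totals in place of TMM, RNA at 2 weeks gave CHAC1 -0.15 and SLC7A5 -0.11. For CHAC1, RNA at 2 weeks gave -2.367e-06 with the treatment taken from titles and -0.0003181 with a looser filter on low counts. Library totals shifted the median over all genes by -0.76 for 6 h footprints, -0.15 for 2-week RNA and -0.16 for 2-week footprints. With library totals, footprints at 6 h gave SHMT2 -0.26 and SLC7A5 -0.27. With a looser filter on low counts, footprints at 72 h gave SLC3A2 0.078. With a single fit over all 3 time points, footprints at 72 h gave SLC3A2 0.049. With library totals in place of TMM, translational efficiency at 6 h gave SHMT2 -0.34 and SLC7A5 -0.086. With DESeq2, translational efficiency at 72 h gave SHMT1 0.0077. With library totals in place of TMM, translational efficiency at 72 h gave SHMT1 0.29. With a looser filter on low counts, translational efficiency at 72 h gave SHMT1 0.12. With the treatment taken from titles, translational efficiency at 2 weeks gave SHMT2 -0.71 and SLC7A5 0.018. With library totals in place of TMM, translational efficiency at 2 weeks gave SLC7A5 0.18. The lowest and highest values with 1 library left out were, for RNA at 6 h, PHGDH -0.13 to 0.028, PSAT1 -0.24 to 0.032, SHMT2 -0.30 to 0.12, MTHFD2 -0.10 to 0.13, ASNS -0.21 to 0.037, ATF4 -0.17 to 0.0092 and DDIT3 -0.10 to 0.22. For RNA at 72 h they were ATF4 -0.075 to 0.56, DDIT3 -0.95 to 0.57, ATF5 -0.24 to 1.30 and CEBPB -1.45 to 0.10. For RNA at 2 weeks they were ATF4 -0.17 to 0.018, CHAC1 -0.23 to 0.20 and SLC7A5 -0.026 to 0.14. For footprints at 6 h they were SHMT2 -0.19 to 0.50. For footprints at 72 h they were SLC3A2 -0.47 to 0.25 and XPOT -0.92 to 0.043. For footprints at 2 weeks they were SLC7A5 -0.18 to 0.067. For translational efficiency at 6 h they were SLC3A2 -0.35 to 0.15. For translational efficiency at 72 h they were SHMT1 -0.24 to 0.20, SLC3A2 -0.076 to 0.58, SLC1A5 -0.36 to 0.81, SLC38A2 -0.083 to 0.60 and XPOT -0.20 to 0.87. For translational efficiency at 2 weeks they were SHMT2 -0.14 to 0.31. For RNA effect, 72 h minus 6 h, they were DDIT3 -1.02 to 0.48. Apart from the deposited labels at 2 weeks, the cause of these changes was not tested, and the 72 h footprint depth, lowest at 152556 counts, limits the footprint results.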
